A study of Mus musculus with 30 samples.

Results

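The 10 genes described here, the members, were followed through RNA-seq of sorted cortical interneurons: the neuropeptide genes Sst, Npy, Cort, Vip, Cck and Tac1, the calcium-binding protein genes Pvalb, Calb1 and Calb2, and Reln. They were taken by symbol from a table of 23993 genes, and all 10 were found. Cells were sorted for tdTomato from the medial prefrontal cortex of C57BL/6 mice heterozygous for a Cre recombinase driver (Sst-Cre or Pvalb-Cre) and the Cre-dependent Ai9 tdTomato reporter, so a cell is tagged when Cre was active in it at any time. Control Sst mice gave 7 female and 7 male libraries, Sst males after 14 days of chronic unpredictable stress (CUS) gave 3, and control males of the Pvalb line gave 7. Control mice carried the same driver and reporter alleles as stressed mice and were not stressed. A further 6 labelled samples (Pvalb females, and females of both lines after CUS) were not analysed here.

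Cortical inhibitory neurons are commonly sorted into classes by these transcripts. Somatostatin cells target dendrites, parvalbumin cells target cell bodies and axon initial segments, and Vip cells mainly inhibit other interneurons. Neuropeptides are made as precursors, cleaved in dense-core vesicles and released to act on G protein-coupled receptors, whereas parvalbumin, calbindin (Calb1) and calretinin (Calb2) stay in the cell and bind calcium, and reelin (Reln) is a secreted glycoprotein. The classes overlap: Npy and Cort are found in many Sst cells, Tac1 in some parvalbumin cells, and Cck in a separate interneuron class and also in pyramidal neurons.

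Several libraries stood apart before any member was compared. SST0-M and SST1-M differed by far less than other pairs (SD of the log2 ratio over genes 0.0212), as did PV0-M and PV2-M (0.0170), and each pair was averaged and counted as 1 sample, which left 22 samples: 7 female Sst, 6 male Sst, 3 CUS and 6 Pvalb. PV1-M, PV4-M and PV5-M carried Xist, the X-inactivation RNA, at up to 333.1 FPKM against the male label. The comparison of all control Sst samples with the Pvalb samples is therefore given for the members with and without them. The other comparisons with Pvalb samples, and the gene lists, include PV1-M, PV4-M and PV5-M. Male Sst controls have titles of 2 kinds, 3 numbered samples and 3 with a date-like number, and all CUS titles are of the second kind. The kinds also differ in scale: FPKM summed over all genes was 311276 to 432075 in numbered male control libraries and 681118 to 959187 in dated ones. SS04031R is the 1 control whose title carries the number of the CUS titles. Within a group, libraries also fell into sets: the SD of the log2 ratio was 0.218 to 0.277 within sets and at least 0.413 between them. The sets were SST1-F, SST3-F and SST4-F, then SST2-F, SST5-F and SST6-F, then PV1-M, PV4-M and PV5-M, then PV3-M with PV6-M, SST040241L with SST04241LL, and the 3 CUS libraries. Neither labels nor methods say whether such libraries share an animal or a pool, so p-values measure the spread between samples, which may be technical, and may be too small.

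The sorted material was checked against markers. Gad1 and Gad2, which encode the GABA-synthesizing enzymes, reached at most 2.05 and 4.33 FPKM (mapped fragments scaled for transcript length and library size) in any sample, and Slc32a1, the vesicular GABA transporter, at most 1.84. Microglia markers were far higher: all 12 together summed to 3716 to 11160 FPKM per sample, against 49.2 to 355.6 for 10 pan-neuronal markers and 29.2 to 554.8 for 8 pyramidal markers. The labelled interneuron identity therefore rests on transcripts at low level in these libraries, and fewer tagged neurons cannot be told apart from less RNA per neuron.

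The members were sparse. Cck and Npy were above 0 in all 24 libraries, Sst in 23 and Reln in 22, whereas Tac1 was listed at 0 in 16, Vip in 15, Cort in 14, Pvalb and Calb2 in 11 each, and Calb1 in 7. Low values of long genes came in steps, 75.0% to 89.7% of them within 5% of a whole multiple per library, which gives the value of 1 fragment. With annotated transcript lengths, the largest Sst value stood for at most about 231 fragments and the largest Cck value for 425. Cort reached at most 23 fragments in any library, Pvalb 15 and Calb2 8. The true numbers are lower because usable length is shorter than annotated length. An exact 0 need not mean that no fragment was read: Slc1a2, an abundant astrocyte glutamate transporter gene, was listed at 0 in all 13 control Sst samples and at 740.9 FPKM or more in every Pvalb sample.

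**Figure D1:**
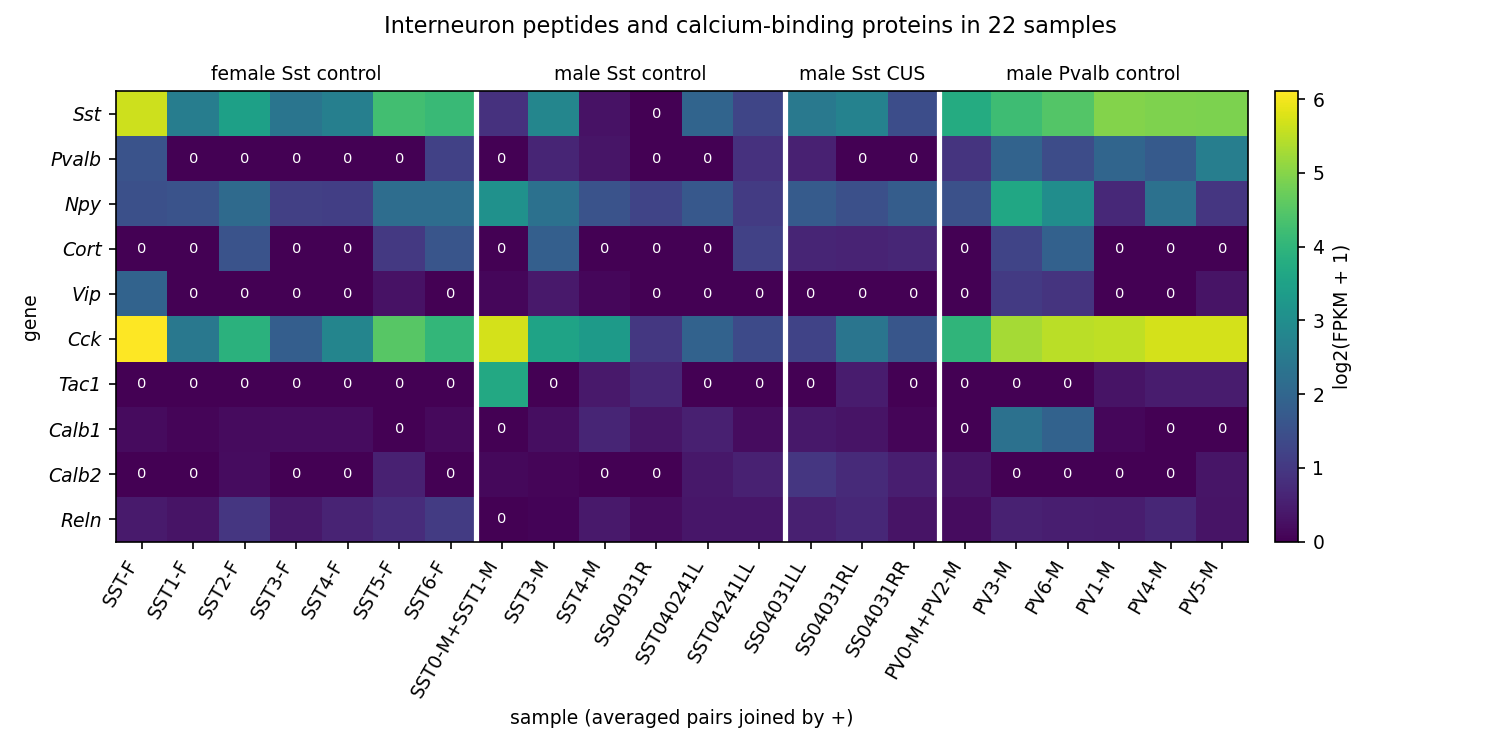
Level of the 10 members as log2(FPKM + 1), colour scale, in 22 samples (columns) grouped by line, sex and stress; white 0 marks a value listed at 0. Sst and Cck are the brightest rows in the Pvalb samples, Tac1 is bright only in the column joining SST0-M with SST1-M, and Calb1 only in PV3-M and PV6-M.

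Upstream sequences were at hand for 8 of the 10 members (RefSeq, GRCm38.p6), and are shown because 5 of the 6 peptide genes hold a motif there that Npy lacks. The cAMP response element, TGACGTCA, binds CREB and is well known from the Sst promoter. Both strands were searched in the 250 bases before each start; the full element reads the same on both and contains the short core motif TGACG. The full element was found in Sst alone among the members and in 1.55% of 32851 promoters. The core motif was found in 5 members (Sst, Vip, Cck, Cort and Tac1) and in 17.8% of all promoters. Windows of 30 bases follow, 5′ to 3′ on the gene's strand, with the match in capitals; a core motif on the other strand reads CGTCA. They lie at chr16:23890874-23890903 (minus strand) for Sst, chr10:5639127-5639156 (plus) for Vip, chr9:121495724-121495753 (minus) for Cck and chr4:149126764-149126793 (minus) for Cort.
Sst: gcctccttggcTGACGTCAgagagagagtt
Vip: ggatcactactgTGACGtctttcggggagc
Cck: cctgctggactgCGTCAgcactgggtaaac
Cort: ctccggcttgtgCGTCAccgcgtgagtgtg
The element of Sst lies 48 to 41 bases before the start used by the sequence table and the core motif of Cck 47 to 43 bases before its own. A match is a description of letters and not of binding. The Sst gene spans 23889573 to 23891342 on chromosome 16 in the annotation, so its window lies inside the annotated span.

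Sst encodes somatostatin, the peptide that names the Sst line. In the 7 female Sst samples it had 4.18 FPKM at the lowest, 10.1 at the median and 49.3 at the highest. Male Sst controls had 0.842 in the pair SST0-M and SST1-M, 6.02 for SST3-M, 0.238 for SST4-M, 0 in SS04031R, 2.89 in SST040241L and 1.44 in SST04241LL. CUS males had 4.53, 5.54 and 1.71. The Pvalb samples had 12.5 in the pair PV0-M and PV2-M, 30.5 in PV1-M, 17.5 in PV3-M, 29.6 in PV4-M, 28.8 in PV5-M and 21.1 in PV6-M. By medians, Sst was highest in Pvalb samples (24.9), then female Sst (10.1), CUS males (4.53) and male Sst controls (1.14), and each neighbouring pair in this order overlapped. The 3 Pvalb samples with high Xist were the 3 highest of their group.

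Among females, Sst separated the library sets. SST1-F, SST3-F and SST4-F had 4.18 to 5.17 FPKM, SST2-F, SST5-F and SST6-F had 10.1 to 18.2, and SST-F had 49.3. SST-F also had the highest mean of pan-neuronal markers among females, 3.91 on the log2(FPKM + 1) scale against a group median of 2.56. Whether neuronal content and Sst level are linked was not tested, since the samples form separate sets.

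Cck encodes cholecystokinin, and its gene lies on chromosome 9 from 121489824 to 121495694. Female Sst samples had 2.53 FPKM at the lowest, 13.9 at the median and 68.0 at the highest. Male Sst controls had 51.5 in the pair SST0-M and SST1-M, 10.7 in SST3-M, 9.02 in SST4-M, 0.979 in SS04031R, 2.76 in SST040241L and 1.58 in SST04241LL. CUS males had 1.35, 4.22 and 2.10. Pvalb samples had 14.98 in the pair PV0-M and PV2-M, and 38.2 to 51.9 in the other 5. The ranking of Cck among all genes was as good as 704 in a female library and 1028 in a Pvalb library. Its best rank in CUS males was 9531. Dated male controls had Cck at ranks 10647 to 11988, and numbered male control libraries at 1557 to 6412. The low rank was thus shared by CUS and unstressed dated males.

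Cck followed Sst in most libraries. The linear ratio of Cck to Sst was 0.606 to 1.38 in the 7 female libraries and 1.18 to 2.19 in the 7 Pvalb libraries, and the order of the 7 females was the same for both genes. In numbered males the ratio was 63.0 in SST0-M, 59.5 in SST1-M and 38.0 in SST4-M, against 1.77 in SST3-M. Those 3 libraries thus held Cck at 9.02 to 51.8 FPKM with Sst below 1. No correlation within a group is given because the samples form sets.

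**Figure D2:**
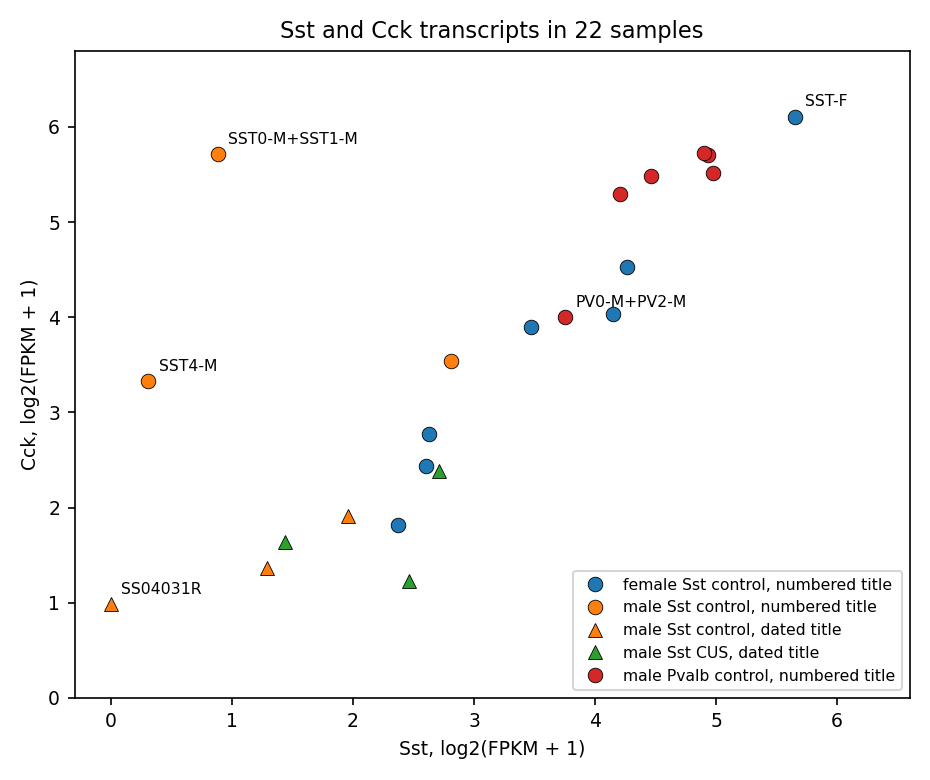
Cck (vertical) against Sst (horizontal), both as log2(FPKM + 1), in 22 samples; colour marks the group and shape the kind of title. Most samples lie along one band, and the pair SST0-M and SST1-M and SST4-M lie above it with low Sst.

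Npy encodes neuropeptide Y (chromosome 6, 49822710 to 49829507). It was above 0 in every library, with 1.202 to 3.54 FPKM in females (median 1.96), and in male controls 7.49 in the pair SST0-M and SST1-M, 3.84 in SST3-M, 1.93 in SST4-M, 1.38 in SS04031R, 2.21 in SST040241L and 1.10 in SST04241LL. CUS males had 2.36, 1.82 and 2.46. Pvalb samples ran from 0.621 in PV1-M through 0.958 in PV5-M, 1.85 in the pair PV0-M and PV2-M and 3.82 in PV4-M to 6.997 in PV6-M and 11.4 in PV3-M. All 4 groups overlapped. In females the set of SST2-F, SST5-F and SST6-F had 3.35 to 3.54 and the other 4 samples 1.96 or less.

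Pvalb encodes parvalbumin, the calcium buffer that names the Pvalb line (chromosome 15, 78191112 to 78206400). Female Sst libraries were at 0 in 5 of 7, with 1.93 FPKM in SST-F and 1.28 in SST6-F. Male Sst controls were at 0 in 3 of 6 samples, with 0.544 in SST3-M, 0.266 in SST4-M and 0.835 in SST04241LL, and CUS males had 0.476 in 1 of 3 and 0 in the others. Pvalb samples had 0.890 in the pair PV0-M and PV2-M, 2.99 in PV1-M, 2.88 in PV3-M, 2.30 in PV4-M, 5.07 in PV5-M and 1.68 in PV6-M. Even the highest of these stood for at most about 15 fragments. In every Pvalb sample the parvalbumin transcript was lower than the Sst transcript, per length.

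**Figure D3:**
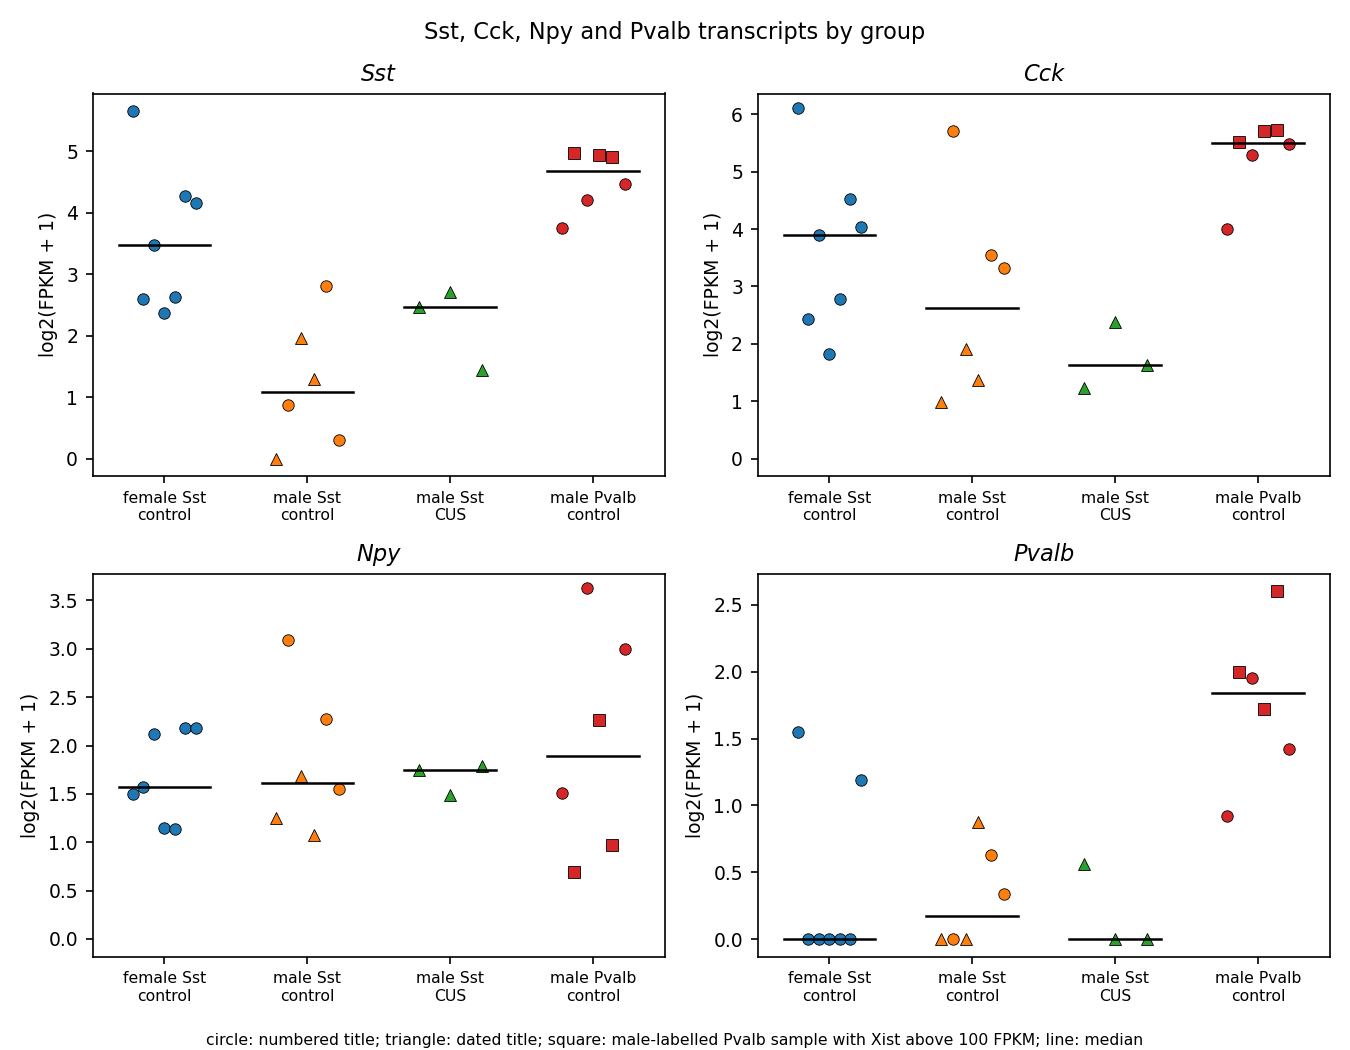
Sst, Cck, Npy and Pvalb as log2(FPKM + 1) by group, 1 point a sample and a line at the group median. The Pvalb line has the highest median for Sst, Cck and Pvalb, SST-F is the highest point for Sst and Cck, and Npy overlaps in all groups.

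The remaining members were at or near 0 in most samples. Cort encodes cortistatin, a peptide close to somatostatin that binds the same receptors. It was at 0 in 4 of 7 females and had 1.95 FPKM in SST2-F, 1.03 in SST5-F and 2.06 in SST6-F, which are the libraries of 1 set and rest on at most 7 fragments each. Male Sst controls had 2.63 in SST3-M, 1.27 in SST04241LL and 0 in the other 4 samples. The CUS libraries had 0.543, 0.521 and 0.565, each at most 2 fragments. Pvalb samples had 1.39 in PV3-M, 2.72 in PV6-M and 0 in the others.

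Vip encodes vasoactive intestinal peptide. SST-F had 2.86 FPKM and SST5-F 0.223, and the other 5 females were at 0. The numbered male samples had 0.0699 to 0.343, and all dated males, controls and CUS, were at 0. In Pvalb samples PV3-M had 1.06, PV6-M 0.885, PV5-M 0.242 and the other 3 were at 0.

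Tac1 encodes the precursor of substance P and neurokinin A. It was listed at 0 in all 7 females. The pair SST0-M and SST1-M had 11.9 FPKM, SST4-M 0.335 and SS04031R 0.582, and the other 3 male controls were at 0. One CUS library had 0.389, and in the Pvalb line PV1-M had 0.251, PV4-M 0.386 and PV5-M 0.388, against 0 in the other 3 Pvalb samples. Apart from the pair, each of these values stood for at most 4 fragments.

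Calb1, the gene of calbindin, had at most 0.152 FPKM in females, 0.554 in male Sst controls and 0.320 in CUS males. In Pvalb samples it was 3.82 in PV3-M and 2.77 in PV6-M, 0.0778 in PV1-M and 0 in the other 3. PV3-M and PV6-M were thus the samples of their group with Calb1, Cort and Vip above 0.8 FPKM, and they had the highest Npy.

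Calb2, the gene of calretinin, had 0.963, 0.663 and 0.428 FPKM in the 3 CUS libraries. Male Sst controls had 0.482 in SST04241LL, 0.322 in SST040241L, 0.0890 in the pair SST0-M and SST1-M, 0.0616 in SST3-M, and SST4-M and SS04031R were at 0. Females reached 0.482 in SST5-F and Pvalb samples 0.261 in PV5-M. All 24 libraries stood for at most 8 fragments.

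Reln, a long transcript with many fragments for its level, had 0.241 FPKM at the lowest, 0.522 at the median and 1.10 at the highest in females. Male Sst controls had 0 in the pair SST0-M and SST1-M, 0.0392 in SST3-M, 0.336 in SST4-M, 0.150 in SS04031R, 0.297 in SST040241L and 0.297 in SST04241LL. CUS males had 0.463, 0.591 and 0.248, and Pvalb samples had 0.156 to 0.580. The pair without Reln is the one with Tac1 at 11.9 and the highest male Cck.

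**Figure D4:**
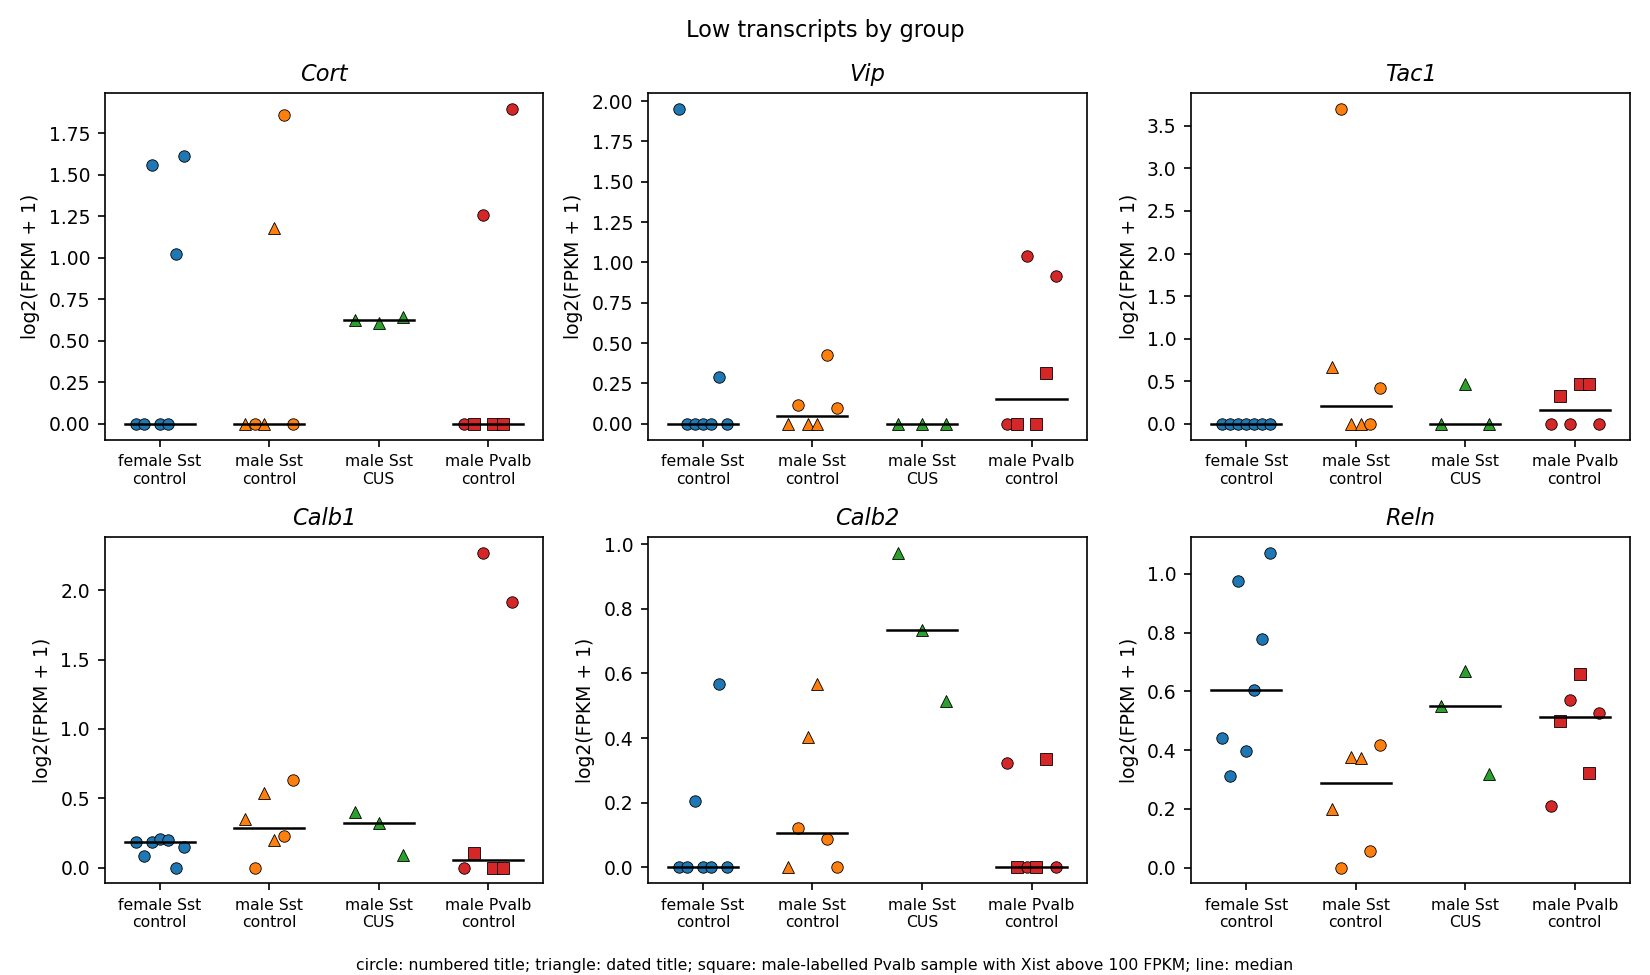
Cort, Vip, Tac1, Calb1, Calb2 and Reln as log2(FPKM + 1) by group, 1 point a sample and a line at the group median. Single samples carry most of the signal: SST-F for Vip, the pair SST0-M and SST1-M for Tac1, PV3-M and PV6-M for Calb1.

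The comparison of control Sst cells (13 samples, both sexes) with control Pvalb cells (6 samples) asks which transcripts mark each line. Sst was lower in Sst samples by a log2 difference of -2.05 (SE 0.63; limma adjusted p = 0.0488; two-sided exact permutation p = 0.00656), and 10 of 13 Sst samples lay below every Pvalb sample. Pvalb was lower in Sst samples by -1.42 (SE 0.27; limma adjusted p = 0.00441; exact permutation p = 0.000516). Cck differed by -2.02 (SE 0.63) with an adjusted p of 0.0515 (limma; exact permutation p = 0.00789) and is not counted as changed. All differences are of mean log2(FPKM + 1), Sst minus Pvalb.

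Of the 10 members, 8 had a mean above the limit of 0.4 FPKM and were tested, and 2 passed, where 7.8% of 14524 genes passed. Vip and Calb2 were below the limit. The median difference over the tested members was -0.37, against 0.00 over all genes tested. For Npy (-0.26, 95% interval -1.04 to 0.51), Cort (0.03, -0.71 to 0.78), Tac1 (0.16, -0.66 to 0.97), Calb1 (-0.49, -1.08 to 0.10) and Reln (0.00, -0.35 to 0.34) the interval held 0.

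The Sst call was narrow. Of 19 fits that left out 1 sample each it passed in 5, those without SST5-F, SST6-F, SST-F, SS04031R or the pair PV0-M and PV2-M, and it was lost in the other 14 (-2.13 to -1.87, limma adjusted p 0.0508 to 0.119). Without PV1-M, PV4-M and PV5-M, the libraries with Xist against their label, the differences were -1.65 for Sst (limma adjusted p = 0.463) and -1.08 for Pvalb (limma adjusted p = 0.211). There 0 of 8 members passed, where 0.0964% of genes did. An unadjusted limma p below 0.05 was found for 3 of the 8 members and for 1734 of 14519 genes. With each library set averaged to 1 sample (8 Sst and 3 Pvalb), the differences were -2.11 and -1.15 (limma adjusted p = 0.956 for both). In that fit 0 of 8 members passed, against 0.0069% of genes. Unadjusted, 1 of the 8 members and 666 of 14493 genes had a limma p below 0.05.

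Set against the male Sst samples alone, the Pvalb samples did not overlap them for either gene. The share of all genes without overlap is not given, so this is a description only. Sst differed by -3.33 (limma adjusted p = 0.00182) and Pvalb by -1.46 (limma adjusted p = 0.0276), so 2 of 7 tested members passed, where 3.41% of genes did. Set against the females alone, Pvalb differed by -1.38 (limma adjusted p = 0.00779) and Sst by -0.95 (limma adjusted p = 0.137), so 1 of 8 members passed, where 25.1% of genes did. SST-F lay above every Pvalb sample for Sst and Cck.

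Pan-neuronal markers moved with these members: the mean log2 level of the list had a median of 3.87 in Pvalb samples (1.81 to 3.97) and 2.49 in Sst samples (2.21 to 3.91), and all 10 genes of the list had a negative difference, 3 of them past the threshold. Pyramidal markers did so too, with a summed level of 29.2 to 554.8 FPKM in Pvalb samples (median 524.3) and 32.5 to 265.1 in Sst samples (median 58.4); Camk2a, a pyramidal cell kinase, had a median of 466.8 against 47.0 FPKM. Measured relative to the pan-neuronal list, the difference was -1.08 for Sst (limma adjusted p = 0.0752) and -0.45 for Pvalb (limma adjusted p = 0.223), so both calls were lost. On that scale 3 other members passed as higher in Sst samples, Cort (1.00, limma adjusted p = 0.0400), Tac1 (1.13, limma adjusted p = 0.0360) and Reln (0.97, limma adjusted p = 0.0211); by construction a member at or near 0 in both lines takes on the difference of the list with its sign turned. Microglia markers had a mean log2 level of 8.88 to 9.22 in Pvalb samples and 7.70 to 8.74 in Sst samples, which do not overlap, and 1 of 12 was lower in Sst samples; endothelial markers had 1.03 to 3.25 and 1.56 to 4.34, and 6 of 7 were higher in Sst samples. The part of any of these cell types in the result was not tested. PV0-M with PV2-M stood at the low end of the pan-neuronal range and held 12.5 FPKM Sst, above 10 of the 13 Sst samples.

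**Figure D5:**
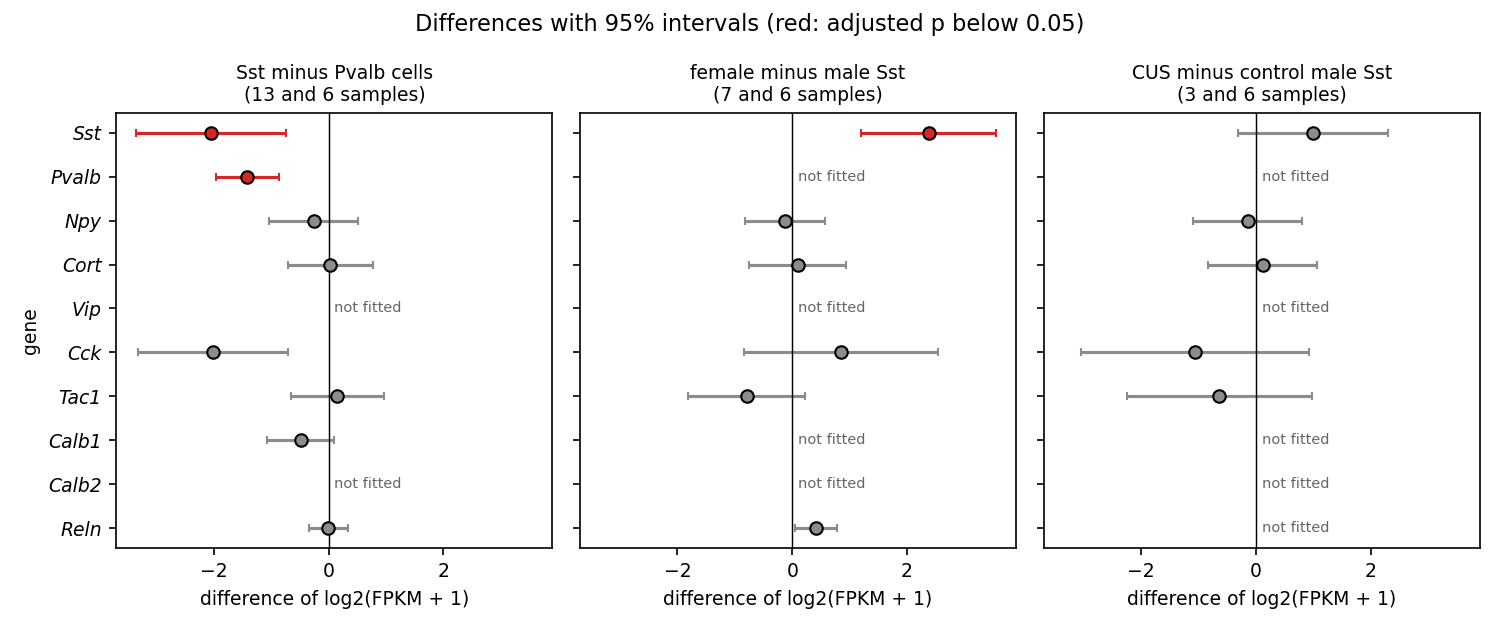
Difference of mean log2(FPKM + 1) with 95% interval for each tested member in 3 comparisons; red marks an adjusted p below 0.05 (limma) and "not fitted" a mean of 0.4 FPKM or less. Sst and Pvalb are red at -2.05 and -1.42 in the first panel, Sst is red at 2.38 in the second, and no member is red in the third.

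Female and male control Sst mice were compared for differences between the sexes. Sst was higher in females by a log2 difference of 2.38 (female minus male; SE 0.55; limma adjusted p = 0.0185; two-sided exact permutation p = 0.00466), with 15.5 FPKM ± 15.9 (SD, n = 7) in females. Of the 7 females, 4 lay above every male. The 13 fits that left out 1 sample each kept the call (2.04 to 2.70, limma adjusted p 0.0123 to 0.0467). Of the 6 members tested, 1 passed, where 11.7% of 14498 genes passed. Pvalb, Vip, Calb1 and Calb2 had means at or below the limit.

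The difference in Sst was of like size against both kinds of male title, with 7 females in each fit. Against the 3 numbered males it was 2.26 (limma adjusted p = 0.0912, exact permutation p = 0.0667), and 0 of 7 members passed, where 3.41% of genes did. Unadjusted, 2 of the 7 members and 3515 of 14443 genes had a limma p below 0.05. Against the 3 dated males the Sst difference was 2.51 (limma adjusted p = 0.00987, exact permutation p = 0.0167). That permutation p is the smallest that 7 against 3 allow, as the groups did not overlap. There 2 of 6 members passed, where 41.5% of genes did. The second member was Cck, at 2.24 against dated males (limma adjusted p = 0.0292) and -0.54 against numbered males (limma adjusted p = 0.709), so its sign turned with the males chosen. With library sets averaged (3 female and 5 male) Sst differed by 2.93 (limma adjusted p = 0.601), and 0 of 7 members passed against 0.104% of genes. Unadjusted, 1 of the 7 members and 1197 of 14441 genes had a limma p below 0.05.

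The other members did not pass in the comparison of the sexes. Reln differed by 0.42 (95% interval 0.05 to 0.79; limma adjusted p = 0.119; exact permutation p = 0.0128), and 5 of 7 females lay above every male. Cck differed by 0.85 (-0.83 to 2.54), Tac1 by -0.80 (-1.81 to 0.22), Npy by -0.13 (-0.83 to 0.57) and Cort by 0.09 (-0.75 to 0.93). The median over the 6 was 0.25, against 0.07 over all genes. Microglia markers moved the other way: 4 of 12 were lower in females, among them Cx3cr1, the fractalkine receptor (-1.40), and Ctss, cathepsin S (-1.40), whose groups did not overlap. The part of microglial RNA in the Sst difference was not tested; relative to the pan-neuronal list the Sst difference was 2.24 (limma adjusted p = 0.0190).

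CUS males (3 samples) were compared with control male Sst cells (6 samples) to ask what stress changed. The 3 CUS libraries form 1 library set, so stress cannot be told apart from anything else that set shares. Sst differed by 1.00 (CUS minus control; 95% interval -0.31 to 2.31; limma adjusted p = 0.641), Npy by -0.14 (-1.09 to 0.81), Cort by 0.12 (-0.84 to 1.07), Cck by -1.06 (-3.05 to 0.93) and Tac1 by -0.64 (-2.25 to 0.97). By limma, 0 of the 5 tested members passed, where 0.00698% of 14319 genes passed. An unadjusted limma p below 0.05 was found for 0 of the 5 members and for 1070 of the 14319 genes. The widest interval was that of Cck.

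Against the 3 dated controls, which share the kind of title with CUS, Sst differed by 1.12 (limma adjusted p = 0.647), Npy by 0.34 and Cck by 0.33. There 0 of 5 members passed, where 0.00705% of genes did. Unadjusted, 0 of the 5 members and 956 of 14186 genes had a limma p below 0.05. With 3 samples against 3 the exact permutation test cannot go below 0.1. Against the 3 numbered controls Cck differed by -2.45 (limma adjusted p = 0.0546) and Npy by -0.63, and 0 of 5 members passed, where 16.1% of genes did. Unadjusted, 1 of the 5 members and 4788 of 14326 genes had a limma p below 0.05. In the fit with numbered controls, stress and kind of title cannot be told apart. Cck and Npy thus changed sign with the controls used. Calb2, below the limit for the fit, had 0.685 FPKM ± 0.268 (SD, n = 3) after CUS with 2 of 3 samples above every male control (exact permutation p = 0.0476, not adjusted for the 10 members). Against the dated controls alone Calb2 differed by 0.42 (95% interval -0.14 to 0.97; limma adjusted p = 0.647; exact permutation p = 0.2).

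Marker lists of other cell types differed between the CUS libraries and the male controls. The mean log2 level of the microglia list was 7.38 to 7.60 after CUS and 7.70 to 8.74 in male controls, that of the astrocyte list 6.92 to 7.10 and 4.73 to 5.77, that of the oligodendrocyte list 6.68 to 6.91 and 4.87 to 6.46, and that of the endothelial list 4.40 to 4.97 and 1.56 to 4.21. None of the 4 lists overlapped between the groups, though for astrocytes this rests on 1 gene, Slc1a2. The part of these lists in the members' values was not tested. The 1 gene of all those tested that passed was Slc1a2, listed at 0 in every male control and at 778.9 FPKM or more after CUS, so the background share of this comparison rests on exact zeros. Slc1a2 also belongs to the astrocyte list, so the separation of that list rests on the same exact zeros. Among its other genes, Gfap and Sox9 did not overlap between the groups, whereas Aldh1l1, Aldoc, Aqp4, Gja1 and Slc1a3 did.

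Other genes of these systems were read from lists, with members left out. In Sst against Pvalb cells, 7.8% of all genes passed. Of 12 tested neuronal calcium-binding genes 7 were lower and 0 higher, the largest differences being those of Vsnl1 (visinin-like 1, -2.43) and Hpca (hippocalcin, -2.24). Among 8 tested genes of other interneuron subtypes 3 were lower, Elfn1 (-1.22), Kcnc1 (-1.05) and Nxph1 (-1.03); Kcnc1, a fast-spiking potassium channel, did not overlap between lines. Of 12 tested genes of GABA and interneuron identity 1 was lower, Satb1 (-0.76), and of 12 peptide processing and vesicle genes 1, Pcsk1n (-1.65). Of the 7 tested receptor genes 0 passed by limma and 0 had an unadjusted p below 0.05, where 3643 of 14524 genes did. Vsnl1, Hpca, Elfn1, Nxph1, Satb1 and Pcsk1n were named after their values were seen.

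Between the sexes 11.7% of all genes passed, and the counts of 1 gene below are near that share. Of 7 tested receptor genes 1 was higher in females, Adcyap1r1 (1.14), the receptor for the peptide PACAP. Ndnf (1.195), Adarb2 (0.71) and Necab3 (1.63) were the 1 gene each that was higher among other interneuron genes (7 tested), identity genes (12) and calcium-binding genes (11). Of 12 peptide processing genes 0 passed and 1 had an unadjusted limma p below 0.05, as did 4441 of 14498 genes. Adcyap1r1, Ndnf, Adarb2 and Necab3 were also named after their values were seen. After CUS, 0 genes passed in the 5 lists by limma (1 of 6 unadjusted among other interneuron genes, 3 of 10 among identity genes and 0 in the others). Among all genes tested, 1070 of 14319 had an unadjusted limma p below 0.05 in that comparison.

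Across the 22 samples, the genes most like each member in log2(FPKM + 1) are given as a description, by Pearson's r, with the samples sharing lines, sexes and library sets. Sst was nearest to Maged1 (0.86), Gm2061 (0.85) and Vsnl1 (0.84), and Cck to Pak1 (0.94), Tnpo2 (0.93) and Cox8a (0.92). Pvalb was nearest to Cacnb3, Lrrc7 and Iqsec3 (0.88 each), which encode a calcium channel subunit, a postsynaptic density protein and a synaptic exchange factor. Calb1 was nearest to Plcxd3 (0.93), Tcte2 (0.92) and Ascl2 (0.90), a likeness that rests on PV3-M and PV6-M. Tac1 was nearest to Wnt9a (0.97), Gm5150 (0.96) and Wnt10a (0.96), which rests on the pair SST0-M and SST1-M.

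Npy (Bloc1s6 0.79, Mrps18b 0.76, Ly6g6c 0.76), Cort (Brinp1 0.78, Cpne6 0.74, 4833419F23Rik 0.73) and Reln (4930520O04Rik 0.83, Atoh8 0.80, Fam69b 0.79) had weaker neighbours. Among the members themselves, r was 0.72 between Sst and Cck, 0.71 between Sst and Pvalb and 0.60 between Npy and Calb1, and -0.41 between Tac1 and Reln. Vip and Calb2, with means below 0.4 FPKM over all samples, were left out.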

How the data were processed

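Values were FPKM in a single deposited table (23993 genes, 24 libraries), and no counts were used. The submitters' notes name TopHat2, Cufflinks, Cuffdiff and mm10. The methods also name HISAT2, StringTie and batch removal with ComBat, without saying whether it touched these values. Fragment numbers came from value steps in genes of at least 3000 bases. Near-identical libraries were averaged. For each comparison, genes whose mean over its samples exceeded 0.4 FPKM were fitted on log2(FPKM + 1) by limma 3.58.1 (R 4.3.3; moderated variance with a trend, robust; two-sided), and p-values were adjusted by Benjamini-Hochberg over every gene fitted (limit 0.05). Members were also tested by exact permutation (scipy 1.17.1). The pseudocount understates changes of low genes. The count test of the methods could not be run. Fits were tested on simulated data. The members and lists were chosen with earlier results of these data known. By rule, named genes were the members, called list genes without overlap (at most 4 a list), cell type markers and the 3 genes most like each member; other list genes were named after their values were seen, as the text states. Averaging library sets (SD of the log2 ratio under 0.3) was added after seeing the data.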

Additional observations from a re-analysis of the deposited data

Results flagged for a closer look

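In 29 groups of 6 or 7 samples, 5 values lay far from the others of their group by Dixon's test on log2(FPKM + 1). The test flags about 1 in 20 groups by chance only for independent, normally distributed values. Some flagged groups were mostly 0 (Vip and Calb2 in females) and samples form sets, so no excess over chance can be read from this count. Vip was high in SST-F (2.86 FPKM) among females and in SST3-M (0.343) among male Sst controls. Cck was low in the pair PV0-M and PV2-M (14.98 FPKM) among Pvalb samples. Tac1 was high in the pair SST0-M and SST1-M (11.9 FPKM) among male Sst controls. Calb2 was high in SST5-F (0.482 FPKM) among females, where it stood for at most 2 fragments.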

How the results depend on the processing

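In Sst against Pvalb cells, 1133 genes passed: 491 with male and 3638 with female Sst samples only, 14 without the high-Xist Pvalb libraries, 1 with library sets averaged, and 389 to 2130 when leaving out each sample (428 without PV1-M, 390 without PV4-M, 389 without PV5-M, 717 without PV6-M, 1910 without the pair SST0-M and SST1-M, 2130 without the pair PV0-M and PV2-M). Of the members, 1 passed with no filter on low values, a pseudocount of 0.1, a common median, females only, numbered titles only or the replicate block, 0 without high-Xist libraries or with sets averaged, and 1 to 3 when leaving out each sample. Relative to the pan-neuronal list Sst and Pvalb did not pass and 3 members passed as higher in Sst samples: Cort (1.00), Tac1 (1.13) and Reln. Reln turned to 0.0054 with a common median, 0.97 relative to the pan-neuronal list, 0.19 with females only, 0.042 with numbered titles, 0.028 without high-Xist libraries, 0.094 with the block and -0.053 to 0.0365 when leaving out each sample. Tac1 turned to -0.16 with a pseudocount of 0.1, and Npy and Calb1 to 0.71 and 0.48 relative to the pan-neuronal list. Cort turned to -0.019 with males only, -0.49 without high-Xist libraries and -0.038 with sets averaged. Leaving out each sample, Cort ran from -0.0775 to 0.3048 and Npy from -0.5249 to 0.0613.

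Between the sexes, 1699 genes passed: 493 with numbered and 6032 with dated males, 228 with the kind of title as a term, 15 with sets averaged, 11 with the replicate block, and 667 (without SS04031R) to 3552 (without the pair SST0-M and SST1-M) when leaving out each sample. Of the members 0 passed with numbered males, the title term, sets averaged or the block, and 2 with dated males. Cck turned to -0.54 with numbered males and with the title term and to -1.85 with the block. Npy turned to 0.36 with dated males. Cort turned to -0.052 relative to the pan-neuronal list, -0.021 with numbered males and the title term, -0.040 with sets averaged and -0.62 with the block. Leaving out each sample, Cort ran from -0.0767 to 0.363 and Npy from -0.2789 to 0.1238.

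After CUS, 1 gene passed (Slc1a2, at exact 0 in controls): 3 with no filter or with near-identical libraries kept apart, 2309 with numbered controls, 6 with controls of both sexes and 1 to 3 when leaving out each sample. Npy was 0.34 and Cck 0.33 with dated controls and with the title term, Sst was -0.29 with controls of both sexes, and Npy ran from -0.2915 to 0.1112 when leaving out each sample. The cause of these changes was not tested. Replicate numbers did not pair samples (r -0.039 to -0.015 between the sexes and -0.044 to 0.123 between lines), and the block gave 1.199 for Sst between the sexes. No paired analysis was possible for CUS because only 1 control, SS04031R, carries the number of the CUS titles. Few fragments limit Cort, Vip, Tac1, Calb2 and Pvalb.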
